A study of Arabidopsis thaliana with 18 samples.

Results

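Alternative 5′ splice site (A5) events in genes with a single listed event were followed across temperature and genotype. Of the 334 genes and 399 splicing events in the deposited table, 73 events in 69 genes were of the A5 type, and 50 genes had an A5 event as their only listed event with 24 genes left out by identifier. These 50 genes, the members, are called single-event A5 genes below. The identifiers assign all 50 events to the A5 type. Which genes have a single listed event depends on the authors' calls from PSI, since the table lists only events that they called differentially spliced (DiS) between the temperatures in at least 1 genotype.

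RNA was sequenced from shoot apical meristem (SAM)-enriched tissue, with young leaves, of Arabidopsis plants of the Col-0 background. The paper states that leaves were taken off with forceps to enrich for the SAM. The groups were *sdg8-2* at 25 °C and at 16 °C, *sdg26-1* at 25 °C and at 16 °C, and the wild type (WT) at 25 °C and at 16 °C, with 3 biological samples each (18 in all) and tissue of about 10 plants per sample. Every group spent its first 5 weeks at 16 °C with 8 h of light per day and 16 h of darkness, and the 25 °C groups had then spent 1 day at 25 °C. The mutants are knock-out insertion lines, 1 line per gene, for the histone methyltransferases SDG8 and SDG26, which place H3K36me3, a mark of transcribed chromatin. The comparison asks whether splicing that responds to temperature depends on these enzymes.

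The measurement is the "Percentage of Spliced In" (PSI), written as a fraction from 0 to 1, which gives how much of a gene's RNA over the event has the spliced-in structure. The authors merged the 3 samples of each condition, so the table holds 1 pooled value per event and condition, with 2 decimals. There is thus no replicate error, no test could be made across samples, and the read depth behind each value is unknown. The change with temperature of an event is its PSI at 25 °C minus that at 16 °C. A difference of PSI carries a rounding error of up to 0.01, a difference between the changes of 2 genotypes one of up to 0.02, and 0.1 is used below as a descriptive limit, not as a test. Because listing required a DiS call, changes with temperature were part of the making of the table. Neither the mutated genes nor expression levels are in the table, so the labels of genotype and tissue could not be checked in it.

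In an A5 event the same downstream exon is joined to 1 of several possible ends of the upstream exon, called donors. The U1 small nuclear RNP pairs with the bases at the exon end and the start of the intron, and an intron nearly always starts with GT. A shift of the donor by a multiple of 3 bases within coding sequence keeps the reading frame, whereas other shifts change the frame, and a frameshift often leads the transcript to nonsense-mediated decay. In a leader before the start codon the shift changes the untranslated sequence alone. The sources used here do not say which donor of an event counts as spliced in, so a higher PSI cannot be read as use of the upstream or of the downstream donor.

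The table gives no position of the event within its gene. The RefSeq annotation of TAIR10.1 was therefore searched for pairs of neighbouring donors that share an acceptor. All 50 genes were found in it, 47 protein-coding and 3 noncoding, with 16 on chromosome 1, 7 on chromosome 2, 15 on chromosome 3, 7 on chromosome 4 and 5 on chromosome 5. For all 47 genes with coding coordinates in the deposited annotation the same span was present. A donor pair was annotated in 32 of the 50 genes (64.0%), 21 with 1 pair and 11 with more. Of the 43 members with at least 2 annotated transcripts 74.4% had a pair, beside 28.9% of the 11488 annotated genes with at least 2 transcripts. The members were chosen for having an A5 event, so a higher share than in genes at large is built into that choice. The other 18 members, *OTP86*, *ABA3* and *PLDGAMMA3* among them, had none. An annotated pair is a candidate for the measured event, and whether it is that event is not given.

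Some annotated donors of the single-event A5 genes lay close together. Of their 44 pairs, 6 were 3 bases apart (13.6%) and 3 were 4 bases apart, beside 1.9% and 4.22% of the 4264 pairs of all annotated genes. The 6 pairs lie in 5 genes, and *UEV1C* holds 2 of them. *ATB BETA* and *B ALPHA* are related genes, as are *UEV1C* and *UEV1D-4*, so the 6 pairs are not independent cases. The median distance was 42 bases, beside 134. A distance divisible by 3 was found in 25 of the 44 pairs (56.8%), beside 40.7% over all genes. Of the 22 pairs whose shifted segment lies wholly in a coding exon of at least 1 transcript, 16 had such a distance (72.7%), beside 61.6% of 1078 such pairs over all genes. These shares describe the annotation and were not tested.

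**Figure D1:**
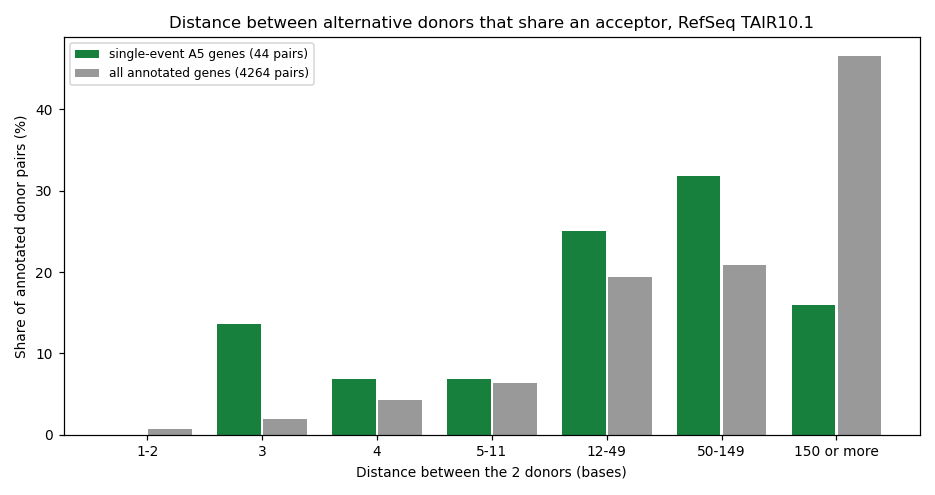
Share of annotated donor pairs (percent, y axis) by the distance between both donors in bases (x axis), for the 44 pairs of the single-event A5 genes (green) and the 4264 pairs of all annotated genes (grey), RefSeq TAIR10.1. Pairs 3 bases apart made up 13.6% in the single-event A5 genes (6 pairs in 5 genes, some of them related) and 1.9% over all genes.

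The donors below are shown because the same sequence recurs in related genes (the first 4), because the donors are 3 bases apart (*CKB3*), because the choice of donor is known to give different protein forms (*RCA*), or because the genotypes differed widely (*RDR6*). Each run is the sense strand of TAIR10.1 from 5′ to 3′, and the capitals mark the first 2 intron bases of each annotated donor. The first 4 runs lie in coding sequence and come from pairs of related genes.
*ATB BETA* (AT1G17720), reverse strand, chr1:6096194-6096223: tgcctgtgGTaGTtgtactcgacgcaactt
*B ALPHA* (AT1G51690), forward strand, chr1:19167558-19167587: taccagtgGTaGTtgtaccctgaacaatat
*UEV1C* (AT2G36060), reverse strand, chr2:15143456-15143485: ctcacaacGTaGTtatatctctgttttttt
*UEV1D-4* (AT3G52560), reverse strand, chr3:19495247-19495276: ctcacaacGTaGTtatatctttttctttat
*CKB3* (AT3G60250), reverse strand, chr3:22270974-22271003: attccaagGCaGTatcctttttctctgttc
*RCA* (AT2G39730), reverse strand, chr2:16571169-16571198: tttctacgGTaaaacagagGTttgaaactc
*RDR6* (AT3G49500), reverse strand, upstream donor, chr3:18353455-18353474: ctcactgtGTaagtctccag
*RDR6*, reverse strand, downstream donor, chr3:18353432-18353451: ctcactgtGTaagtgctttt

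The tandem donors of *ATB BETA* and *B ALPHA* share an unbroken run of 13 bases and 21 of 30 in all, and those of *UEV1C* and *UEV1D-4* a run of 20 and 26 of 30. In *CKB3* the upstream donor starts with GC, a rare variant. The donors of *RCA* are 11 bases apart in coding sequence, which shifts the frame, and those of *RDR6* lie 23 bases apart in the untranslated leader in a repeated stretch, where the first 14 bases of both runs are the same. *UEV1C* has a second tandem pair and *UEV1D-4* a second pair 23 bases apart in untranslated sequence. Each donor was scored over 3 exon and 6 intron bases, as the sum of the log2 frequency of each base among the 131269 annotated donors relative to 0.25. The median donor of the genome scored 6.98 bits and the 5th percentile was 2.65. The donors of *RCA* scored 7.0 and 6.88, upstream first, while the tandem donors scored 4.65 and −1.34 in both *ATB BETA* and *B ALPHA*, 3.08 and 1.82 in both *UEV* genes, and −0.06 and 0.33 in *CKB3*. The second tandem pair of *UEV1C* scored −4.34 and 7.97, so its downstream donor was above the genome median, and which of its pairs was measured is not known.

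The PSI levels of the 50 events covered the whole scale. At 25 °C the median was 0.555 in *sdg8-2*, 0.635 in *sdg26-1* and 0.595 in WT, against 0.535 in *sdg8-2*, 0.515 in *sdg26-1* and 0.555 in WT at 16 °C. In WT, 11 events at 25 °C and 9 at 16 °C had a PSI of at most 0.2, and 12 events at 25 °C and 15 at 16 °C one of at least 0.8.

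At 25 °C the PSI of these genes was higher in some and lower in others, with similar numbers in the 3 genotypes. In *sdg8-2*, 28 of the 50 events differed by 0.1 or more, 11 higher and 17 lower at 25 °C, beside 56.1% of all 399 listed events (24.3% higher, 31.8% lower). In *sdg26-1* there were 29, 13 higher and 16 lower, beside 59.6% (24.8% higher, 34.8% lower). In WT there were 24, 10 higher and 14 lower, beside 51.1% (23.3% higher, 27.8% lower). The median absolute change was 0.11 in *sdg8-2*, 0.1 in *sdg26-1* and 0.085 in WT, and over all listed events it was 0.11 in *sdg8-2*, 0.11 in *sdg26-1* and 0.1 in WT. The median signed change was −0.01 in *sdg8-2*, 0.01 in *sdg26-1* and 0 in WT, beside −0.03 in *sdg8-2*, −0.05 in *sdg26-1* and −0.03 in WT over all listed events. The shares of the single-event A5 genes were thus near those of the whole table, and in the 95 single-event genes with alternative 3′ sites they were 54.7% in *sdg8-2*, 51.6% in *sdg26-1* and 44.2% in WT. Just inside the limit, at 0.1, were 2 events in *sdg8-2*, 5 in *sdg26-1* and 3 in WT, and just outside, at 0.09, were 2 in *sdg8-2*, 2 in *sdg26-1* and 1 in WT.

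Most members had the same direction in all genotypes. The sign was the same in all 3 genotypes for 39 events, 19 higher and 20 lower at 25 °C, which is 78.0%, beside 84.0% of all listed events. A change of at least 0.1 in the same direction in every genotype was found in 15 events, 7 higher and 8 lower, beside 30.3% of the listed events. Among them, AT1G13350 in WT, *B ALPHA* and AT5G51970 in *sdg26-1*, and AT3G57470 in *sdg8-2* had an absolute change of just 0.1. That is within the rounding error of the limit. No member reached 0.1 in opposite directions in 2 genotypes, which 2.26% of the listed events did. In 9 members the change stayed under 0.1 in every genotype, beside 19.3% of the listed events.

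**Figure D2:**
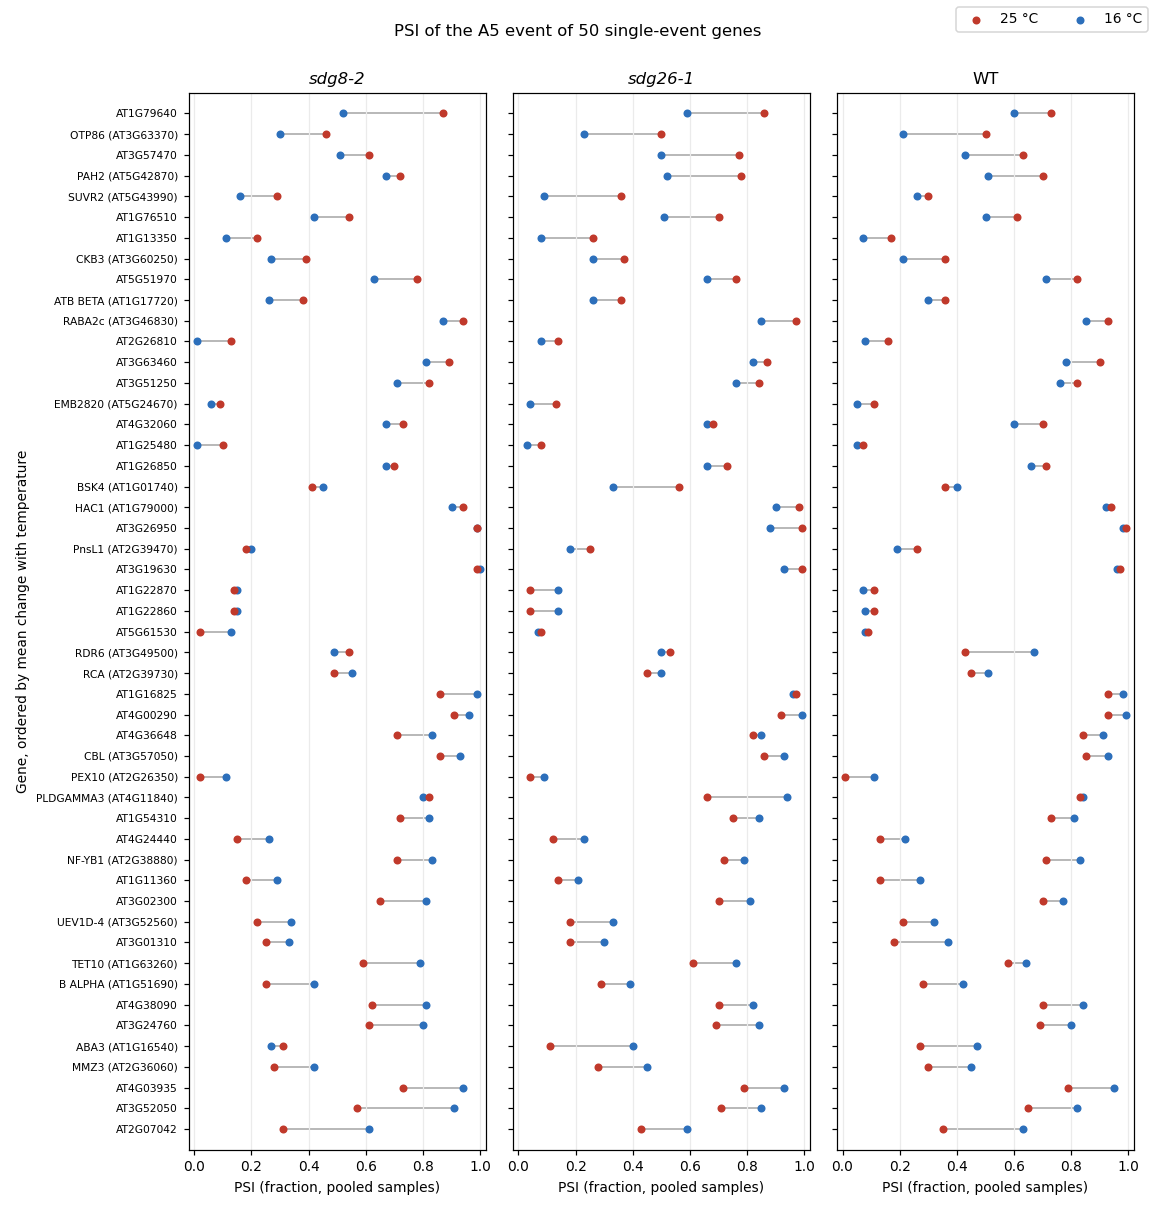
PSI (fraction, x axis) of the A5 event of each of the 50 genes (rows, ordered by the mean change over the genotypes) in *sdg8-2*, *sdg26-1* and WT. Each point is 1 pooled value of 3 samples, red at 25 °C and blue at 16 °C, and the grey line joins them. The direction was the same in all 3 genotypes in 39 of the 50 rows.

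Of the 7 genes of protein phosphorylation and dephosphorylation, 4 in *sdg8-2*, 5 in *sdg26-1* and 3 in WT were higher at 25 °C by at least 0.1, while 1 in *sdg8-2*, 2 in *sdg26-1* and 1 in WT were lower, without a test and with no common meaning of higher across genes. Over all listed events, 24.3% were higher in *sdg8-2*, 24.8% in *sdg26-1* and 23.3% in WT. Lower were 31.8% in *sdg8-2*, 34.8% in *sdg26-1* and 27.8% in WT. The same shares apply to the gene groups below. Each group holds few genes and was chosen with earlier results known, so its counts are not a trait of the group. The largest change of all members was that of AT1G79640 in *sdg8-2*. This gene encodes a protein kinase. Its PSI at 25 °C was 0.87 in *sdg8-2*, 0.86 in *sdg26-1* and 0.73 in WT, against 0.52 in *sdg8-2*, 0.59 in *sdg26-1* and 0.6 in WT at 16 °C. At 25 °C both mutants were above WT, while *sdg8-2* was below it at 16 °C and *sdg26-1* within 0.01 of it. The single donor pair annotated in this gene is 75 bases apart. It lies upstream of the deposited coding span, but in RefSeq its segment is partly coding.

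A second kinase gene, AT1G13350, had 0.22 in *sdg8-2*, 0.26 in *sdg26-1* and 0.17 in WT at 25 °C. At 16 °C it had 0.11 in *sdg8-2*, 0.08 in *sdg26-1* and 0.07 in WT. Every value at 25 °C was above every value at 16 °C. How many listed events share this was not counted, but 84.0% had the same sign of change in all 3 genotypes. *BSK4* (AT1G01740), of the brassinosteroid-signalling kinase family, differed by at least 0.1 between the temperatures in *sdg26-1* only. It had 0.56 at 25 °C and 0.33 at 16 °C in *sdg26-1*, whereas it was 0.41 at 25 °C and 0.45 at 16 °C in *sdg8-2* and 0.36 at 25 °C and 0.4 at 16 °C in WT. Its annotated donors are 4 bases apart in coding sequence.

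*ATB BETA* and *B ALPHA* encode regulatory B subunits of protein phosphatase 2A, which direct the enzyme to its substrates. The PSI of their events changed in opposite directions. Which donor counts as spliced in is unknown for both, so opposite use of the donors cannot be read from this. For *ATB BETA* the PSI at 25 °C was 0.38 in *sdg8-2*, 0.36 in *sdg26-1* and 0.36 in WT, against 0.26 in *sdg8-2*, 0.26 in *sdg26-1* and 0.3 in WT at 16 °C. For *B ALPHA* it was 0.25 in *sdg8-2*, 0.29 in *sdg26-1* and 0.28 in WT at 25 °C, against 0.42 in *sdg8-2*, 0.39 in *sdg26-1* and 0.42 in WT at 16 °C. In both genes the values at 25 °C and at 16 °C did not overlap, again without a count over all listed events. Both have the tandem donors of the same 13 bases as their only annotated pair. Of a list of 10 genes of phosphatase 2A subunits, these 2 were in the table.

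*CKB3* encodes a regulatory beta subunit of casein kinase 2, an enzyme that also acts on clock proteins. Its PSI was 0.39 in *sdg8-2*, 0.37 in *sdg26-1* and 0.36 in WT at 25 °C, against 0.27 in *sdg8-2*, 0.26 in *sdg26-1* and 0.21 in WT at 16 °C. It was the only one of 8 listed casein kinase 2 genes with an event in the table. The last member of the group, AT1G22870, annotated as a kinase family gene with ARM repeats, and its neighbour AT1G22860, annotated as a vacuolar sorting protein of the VPS39 type, carry the same assembled locus in their event identifiers. Their PSI values were the same in the mutants, 0.14 at 25 °C and 0.15 at 16 °C in *sdg8-2* and 0.04 at 25 °C and 0.14 at 16 °C in *sdg26-1*. In WT, AT1G22870 had 0.11 at 25 °C and 0.07 at 16 °C, and AT1G22860 had 0.11 at 25 °C and 0.08 at 16 °C. They may be 1 event listed under 2 genes, so the 50 genes stand for 49 loci, and RefSeq annotates a donor pair, 4 bases apart, in AT1G22870 alone.

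The PSI of both ubiquitin E2 variant genes in the table was lower at 25 °C in all genotypes. Whether the same donor counts as spliced in for both is not known. UEV1 proteins lack the catalytic cysteine of ubiquitin-conjugating enzymes and pair with an active one to build chains on their targets. *UEV1C* had a PSI of 0.28 in *sdg8-2*, 0.28 in *sdg26-1* and 0.3 in WT at 25 °C, against 0.42 in *sdg8-2*, 0.45 in *sdg26-1* and 0.45 in WT at 16 °C. *UEV1D-4* had 0.22 in *sdg8-2*, 0.18 in *sdg26-1* and 0.21 in WT at 25 °C, against 0.34 in *sdg8-2*, 0.33 in *sdg26-1* and 0.32 in WT at 16 °C. The genotypes lay within 0.04 of each other at each temperature in both genes. Of the 4 genes of the family, the other two are not listed.

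The 5 genes with donors 3 bases apart, *ATB BETA*, *B ALPHA*, *UEV1C*, *UEV1D-4* and *CKB3*, were set beside each other after their values had been seen. In *CKB3* the range over the genotypes was 0.03 at 25 °C and 0.06 at 16 °C, and in the other 4 genes it was at most 0.04 at either temperature. A range of at most 0.05 was also found in 52.4% of all listed events at 25 °C and in 51.4% at 16 °C. Changes of at least 0.1 in the 5 genes were lower at 25 °C in 3 genes and higher in the rest. *ATB BETA* had a change of 0.06 in WT, under the limit. As the spliced-in donor is unknown, these directions cannot be compared between genes.

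Of the 6 genes of chromatin, transcription and RNA silencing, 2 in *sdg8-2*, 2 in *sdg26-1* and 1 in WT were higher at 25 °C by at least 0.1, and 2 in *sdg8-2*, 1 in *sdg26-1* and 2 in WT were lower. Of all listed events, 24.3% in *sdg8-2*, 24.8% in *sdg26-1* and 23.3% in WT were higher. Lower were 31.8% in *sdg8-2*, 34.8% in *sdg26-1* and 27.8% in WT. *RDR6*, whose RNA-dependent RNA polymerase makes the double-stranded precursors of trans-acting siRNAs, differed by at least 0.1 between the temperatures in WT alone. Values were 0.54 at 25 °C and 0.49 at 16 °C in *sdg8-2*, 0.53 at 25 °C and 0.5 at 16 °C in *sdg26-1*, and 0.43 at 25 °C and 0.67 at 16 °C in WT. The mutants were close to each other at both temperatures, below WT at 16 °C and above it at 25 °C. Of 5 genes of the trans-acting siRNA pathway, *RDR6* and *AGO1* had an event in the table.

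*SUVR2*, which encodes a SET-domain protein of transcriptional silencing, differed between the genotypes chiefly at 16 °C. Its PSI at 16 °C was 0.16 in *sdg8-2* and 0.09 in *sdg26-1*, against 0.26 in WT, and at 25 °C it was 0.29 in *sdg8-2* and 0.36 in *sdg26-1*, against 0.3 in WT. *SUVR2* has 17 annotated transcripts, and its 2 donor pairs are 74 bases apart in the leader and 60 bases apart in coding sequence. AT1G76510, which encodes a protein with an ARID/BRIGHT DNA-binding domain, was higher at 25 °C throughout, with 0.54 in *sdg8-2*, 0.7 in *sdg26-1* and 0.61 in WT, against 0.42 in *sdg8-2*, 0.51 in *sdg26-1* and 0.5 in WT at 16 °C.

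*NF-YB1*, a subunit of the CCAAT-binding factor NF-Y, had 0.71 in *sdg8-2*, 0.72 in *sdg26-1* and 0.71 in WT at 25 °C, against 0.83 in *sdg8-2*, 0.79 in *sdg26-1* and 0.83 in WT at 16 °C, a difference of at least 0.1 in *sdg8-2* and WT. The gene of the gamma chain of the initiation factor TFIIA, AT4G24440, had 0.15 in *sdg8-2*, 0.12 in *sdg26-1* and 0.13 in WT at 25 °C, against 0.26 in *sdg8-2*, 0.23 in *sdg26-1* and 0.22 in WT at 16 °C, a difference of at least 0.1 in both mutants and of −0.09 in WT. *HAC1*, a histone acetyltransferase of the CBP family, stayed between 0.9 and 0.98 in all conditions, and its annotated donors are 72 bases apart in coding sequence.

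Of the 3 chloroplast genes, *OTP86* alone was higher at 25 °C by at least 0.1, in each genotype, and its change in WT was the most positive of the 50 members. It encodes a pentatricopeptide repeat protein of chloroplast RNA editing, and its PSI was 0.46 in *sdg8-2*, 0.5 in *sdg26-1* and 0.5 in WT at 25 °C, against 0.3 in *sdg8-2*, 0.23 in *sdg26-1* and 0.21 in WT at 16 °C. *RCA* encodes rubisco activase, which frees rubisco of inhibitory sugar phosphates, and alternative donors are known to give its longer and shorter forms. Its change was small and alike in all genotypes, with 0.49 in *sdg8-2*, 0.45 in *sdg26-1* and 0.45 in WT at 25 °C, against 0.55 in *sdg8-2*, 0.5 in *sdg26-1* and 0.51 in WT at 16 °C. *PnsL1* (AT2G39470), for a PsbP-like protein of the chloroplast NDH complex, had 0.18 at 25 °C and 0.2 at 16 °C in *sdg8-2*, 0.25 at 25 °C and 0.18 at 16 °C in *sdg26-1*, and 0.26 at 25 °C and 0.19 at 16 °C in WT. In this gene *sdg8-2* alone did not show the higher value at 25 °C.

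Genes of membranes, transport and trafficking mostly sat near the ends of the PSI scale. Of the 8, none in *sdg8-2* and 1 each in *sdg26-1* and WT were higher at 25 °C by at least 0.1, and 2 in *sdg8-2*, 2 in *sdg26-1* and 1 in WT were lower. Of all listed events, 24.3% in *sdg8-2*, 24.8% in *sdg26-1* and 23.3% in WT were higher. Lower were 31.8% in *sdg8-2*, 34.8% in *sdg26-1* and 27.8% in WT. Among the genes lower in *sdg26-1*, AT1G22860 lay at the limit. It may be the same event as that of AT1G22870, counted above. *TET10*, which encodes a tetraspanin, had intermediate levels. Its PSI at 25 °C was 0.59 in *sdg8-2*, 0.61 in *sdg26-1* and 0.58 in WT, and at 16 °C 0.79 in *sdg8-2*, 0.76 in *sdg26-1* and 0.64 in WT, so both mutants stood above WT by at least 0.1 at 16 °C and were within 0.03 of it at 25 °C. *PEX10*, a peroxin of peroxisomal protein import, was low everywhere, with 0.02 in *sdg8-2*, 0.04 in *sdg26-1* and 0.01 in WT at 25 °C, against 0.11 in *sdg8-2*, 0.09 in *sdg26-1* and 0.11 in WT at 16 °C. The small GTPase gene *RABA2c* had 0.94 in *sdg8-2*, 0.97 in *sdg26-1* and 0.93 in WT at 25 °C, against 0.87 in *sdg8-2*, 0.85 in *sdg26-1* and 0.85 in WT at 16 °C.

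The WD-40 repeat gene AT3G63460, with donors 6 bases apart, was also higher at 25 °C, by 0.08 in *sdg8-2*, 0.05 in *sdg26-1* and 0.12 in WT. AT1G16825, for an ER-shaping reticulon, was lower at 25 °C by 0.13 in *sdg8-2*, where it had 0.86 at 25 °C and 0.99 at 16 °C, while the changes were 0.01 in *sdg26-1* and −0.05 in WT. The mechanosensitive channel gene AT4G00290 had changes of −0.05 in *sdg8-2*, −0.07 in *sdg26-1* and −0.06 in WT. AT1G25480, of the aluminium-activated malate transporter family, had changes of 0.09 in *sdg8-2*, 0.05 in *sdg26-1* and 0.02 in WT, with a PSI of at most 0.05 at 16 °C. None of these 4 genes but AT1G16825 differed between a mutant and WT by 0.05 or more at either temperature.

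Among the 8 metabolic genes, *ABA3*, *PLDGAMMA3* and AT3G57470 had a range over the genotypes of at least 0.1 at 25 °C. At 16 °C, *ABA3*, *PLDGAMMA3* and *PAH2* had one. Over all listed events, 26.1% had such a range at 25 °C and 25.8% at 16 °C. Of the 8 genes, 2 in *sdg8-2*, 3 in *sdg26-1* and 3 in WT were higher at 25 °C by at least 0.1. None in *sdg8-2*, 3 in *sdg26-1* and 2 in WT were lower. Of all listed events, 24.3% in *sdg8-2*, 24.8% in *sdg26-1* and 23.3% in WT were higher. Lower were 31.8% in *sdg8-2*, 34.8% in *sdg26-1* and 27.8% in WT. *ABA3* encodes the molybdenum cofactor sulfurase needed for the last step of abscisic acid synthesis. It had 0.31 at 25 °C and 0.27 at 16 °C in *sdg8-2*, 0.11 at 25 °C and 0.4 at 16 °C in *sdg26-1*, and 0.27 at 25 °C and 0.47 at 16 °C in WT. The value was thus lower at 25 °C in *sdg26-1* and WT but not in *sdg8-2*. *PAH2* encodes a phosphatidate phosphatase, which turns phosphatidic acid into diacylglycerol. Spliced-in fractions were 0.72 at 25 °C and 0.67 at 16 °C in *sdg8-2*, 0.78 at 25 °C and 0.52 at 16 °C in *sdg26-1*, and 0.7 at 25 °C and 0.51 at 16 °C in WT. In *sdg8-2* the level at 16 °C was already near the WT level at 25 °C.

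*PLDGAMMA3*, which encodes a phospholipase D and so makes phosphatidic acid, differed by at least 0.1 between the temperatures in *sdg26-1* alone. It had 0.66 at 25 °C and 0.94 at 16 °C in *sdg26-1*, beside 0.82 at 25 °C and 0.8 at 16 °C in *sdg8-2* and 0.83 at 25 °C and 0.84 at 16 °C in WT. AT3G57470, for an insulinase-type peptidase, was higher at 25 °C in all genotypes, with 0.61 in *sdg8-2*, 0.77 in *sdg26-1* and 0.63 in WT, against 0.51 in *sdg8-2*, 0.5 in *sdg26-1* and 0.43 in WT at 16 °C. Its annotated donors are 92 bases apart in untranslated sequence.

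AT3G01310, annotated as phosphoglycerate mutase-like, was lower at 25 °C, with 0.25 in *sdg8-2*, 0.18 in *sdg26-1* and 0.18 in WT, against 0.33 in *sdg8-2*, 0.3 in *sdg26-1* and 0.37 in WT at 16 °C. The zinc-binding alcohol dehydrogenase gene AT5G51970 was higher at 25 °C by 0.15 in *sdg8-2*, 0.1 in *sdg26-1* and 0.11 in WT. *CBL*, for the cystathionine beta-lyase of methionine synthesis, was lower by 0.07 in *sdg8-2*, 0.07 in *sdg26-1* and 0.08 in WT, and its PSI at 16 °C was 0.93 in all 3 genotypes. *EMB2820* (AT5G24670), annotated as a deaminase, had changes of 0.03 in *sdg8-2*, 0.09 in *sdg26-1* and 0.06 in WT.

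The 4 genes of methyltransferase or radical SAM proteins had small changes, with 1 higher and 1 lower at 25 °C by at least 0.1 in *sdg8-2* and none in *sdg26-1* or WT. Over all listed events, 56.1% in *sdg8-2*, 59.6% in *sdg26-1* and 51.1% in WT passed 0.1 in either direction. AT2G26810 was higher at 25 °C by 0.12 in *sdg8-2*, 0.06 in *sdg26-1* and 0.08 in WT, and AT1G54310 was lower by 0.1 in *sdg8-2*, 0.09 in *sdg26-1* and 0.08 in WT. AT1G26850 had changes of 0.03 in *sdg8-2*, 0.07 in *sdg26-1* and 0.05 in WT. AT3G19630 stayed at or above 0.93 in every condition.

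Of the 3 noncoding genes, AT2G07042 and AT4G03935 were lower at 25 °C by at least 0.1 in every genotype and AT4G36648 in *sdg8-2* only. Among all listed events, 31.8% in *sdg8-2*, 34.8% in *sdg26-1* and 27.8% in WT were lower by that much. AT2G07042 had 0.31 in *sdg8-2*, 0.43 in *sdg26-1* and 0.35 in WT at 25 °C, against 0.61 in *sdg8-2*, 0.59 in *sdg26-1* and 0.63 in WT at 16 °C. AT4G03935 had 0.73 in *sdg8-2*, 0.79 in *sdg26-1* and 0.79 in WT at 25 °C, against 0.94 in *sdg8-2*, 0.93 in *sdg26-1* and 0.95 in WT at 16 °C. In both, no value at 25 °C reached a value at 16 °C. The share of listed events with such values was not counted. The third, AT4G36648, had 0.71 in *sdg8-2*, 0.82 in *sdg26-1* and 0.84 in WT at 25 °C, against 0.83 in *sdg8-2*, 0.85 in *sdg26-1* and 0.91 in WT at 16 °C.

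Outside these groups, AT3G52050, for a 5′-3′ exonuclease family protein, had the most negative change of all 50 members, in *sdg8-2*. Its PSI was 0.57 in *sdg8-2*, 0.71 in *sdg26-1* and 0.65 in WT at 25 °C, against 0.91 in *sdg8-2*, 0.85 in *sdg26-1* and 0.82 in WT at 16 °C. AT4G38090, annotated as a ribosomal protein S5 domain gene, was lower at 25 °C by 0.19 in *sdg8-2*, 0.12 in *sdg26-1* and 0.14 in WT. The kelch repeat gene AT3G24760 was lower by 0.19 in *sdg8-2*, 0.15 in *sdg26-1* and 0.11 in WT. AT3G26950, of unknown function, lay at 0.98 or 0.99 in all conditions but *sdg26-1* at 16 °C, where it was 0.88. The other 5 members, AT1G11360, AT3G02300, AT3G51250, AT4G32060 and AT5G61530, had changes between −0.16 and 0.11 over the genotypes.

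Events were listed for their difference between temperatures and not between genotypes, so the counts for genotypes are not comparable with those for temperature. At 25 °C, 3 of the 50 events differed by at least 0.1 between *sdg8-2* and WT, beside 15.0% of all listed events (7.77% higher, 7.27% lower). AT1G79640 and *RDR6* were higher in *sdg8-2*, by 0.14 and 0.11, and AT4G36648 was lower by 0.13. Between *sdg26-1* and WT there were 6 at 25 °C, beside 9.52% (5.01% higher, 4.51% lower). *BSK4*, AT3G57470, AT1G79640 and *RDR6* were higher in *sdg26-1*, by 0.2, 0.14, 0.13 and 0.1, and *PLDGAMMA3* and *ABA3* had differences of −0.17 and −0.16.

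At 16 °C, 5 events differed by at least 0.1 between *sdg8-2* and WT, beside 18.3% of all listed events (11.3% higher, 7.02% lower). *PAH2* and *TET10* were higher in *sdg8-2*, by 0.16 and 0.15, and *ABA3*, *RDR6* and *SUVR2* had differences of −0.2, −0.18 and −0.1. Between *sdg26-1* and WT there were also 5, beside 14.3% (6.77% higher, 7.52% lower). *TET10* and *PLDGAMMA3* were higher in *sdg26-1*, by 0.12 and 0.1, and *RDR6*, *SUVR2* and AT3G26950 had differences of −0.17, −0.17 and −0.1. Both mutants were compared with the same WT values, so a gene named for both shares its WT value, which is 1 pooled number.

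The median difference from WT was 0 for *sdg8-2* and 0.01 for *sdg26-1* at 25 °C, and 0.01 for *sdg8-2* and −0.005 for *sdg26-1* at 16 °C. Over all 3 genotypes, 27 members at 25 °C and 26 at 16 °C had a range of at most 0.05, beside 52.4% and 51.4% of the listed events. A range of at least 0.1 was found in 13 members at 25 °C and 8 at 16 °C, beside 26.1% and 25.8%. The widest range was 0.2 at either temperature, in *ABA3* at both and in *BSK4* at 25 °C.

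**Figure D3:**
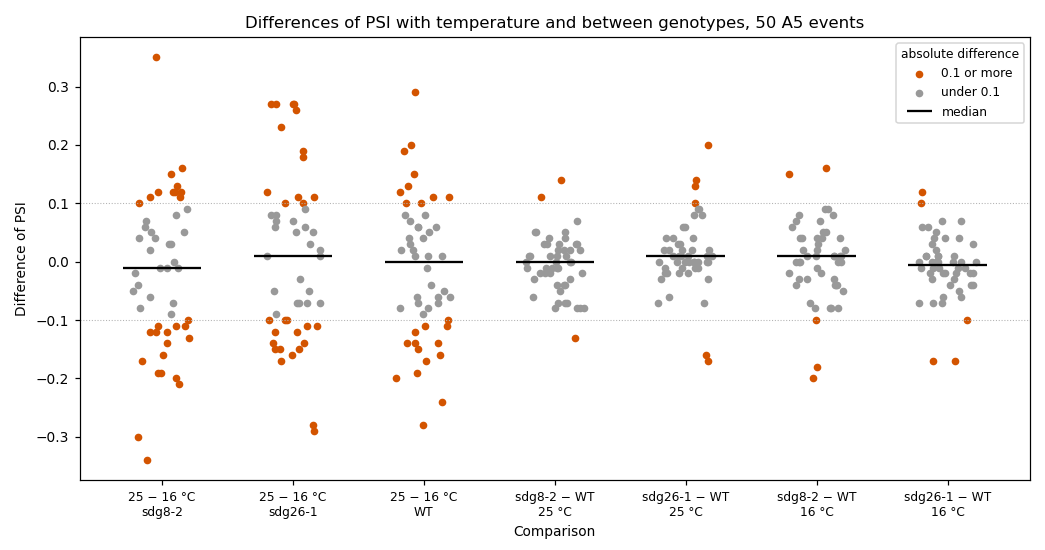
Difference of PSI (y axis) for the 50 A5 events in 7 comparisons (x axis), with 1 point per event, orange at an absolute difference of 0.1 or more, and the black line at the median. The changes with temperature had 28, 29 and 24 orange points in *sdg8-2*, *sdg26-1* and WT, and the differences from WT had 3 and 6 at 25 °C and 5 and 5 at 16 °C in *sdg8-2* and *sdg26-1*.

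The change with temperature itself differed from that of WT by at least 0.1 in 10 members for *sdg8-2*, beside 26.1% of the listed events (11.3% higher, 14.8% lower), and in 9 for *sdg26-1*, beside 22.6% (9.77% higher, 12.8% lower). Events were listed for a DiS call in at least 1 genotype. A larger change in the called genotype than in the others is thus partly built into the listing. For *sdg8-2*, *RDR6* (0.29), *ABA3* (0.24), AT1G79640 (0.22) and AT3G01310 (0.11) had a more positive change than in WT. A more negative change was found for AT3G52050 (−0.17), *TET10* (−0.14), *PAH2* (−0.14), *OTP86* (−0.13), AT5G61530 (−0.12) and AT3G57470 (−0.1). In *OTP86*, *PAH2* and AT3G57470 this was a smaller change in the WT direction, and in AT3G52050 and *TET10* a larger one.

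For *sdg26-1* the more positive changes were those of *RDR6* (0.27), *BSK4* (0.27), *SUVR2* (0.23), AT1G79640 (0.14), AT2G07042 (0.12) and AT3G26950 (0.1). AT3G26950 here and AT3G57470 in *sdg8-2* lay at the limit, within the rounding error of up to 0.02. So did AT3G01310 in *sdg8-2* (0.11) lie within that error of the limit. AT2G07042 here and AT5G61530 in *sdg8-2* (−0.12) lay at its edge. The more negative ones were those of *PLDGAMMA3* (−0.27) and of the neighbours AT1G22870 (−0.14) and AT1G22860 (−0.13), which share 1 locus. *BSK4* had changes of 0.23 in *sdg26-1*, −0.04 in *sdg8-2* and −0.04 in WT. *PLDGAMMA3* had changes of −0.28 in *sdg26-1*, 0.02 in *sdg8-2* and −0.01 in WT. The median difference of the change was −0.015 for *sdg8-2* and 0.02 for *sdg26-1*, and −0.01 for each mutant over all listed events. None of these differences has a replicate error, so which of them exceed the spread between samples is not known.

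**Figure D4:**
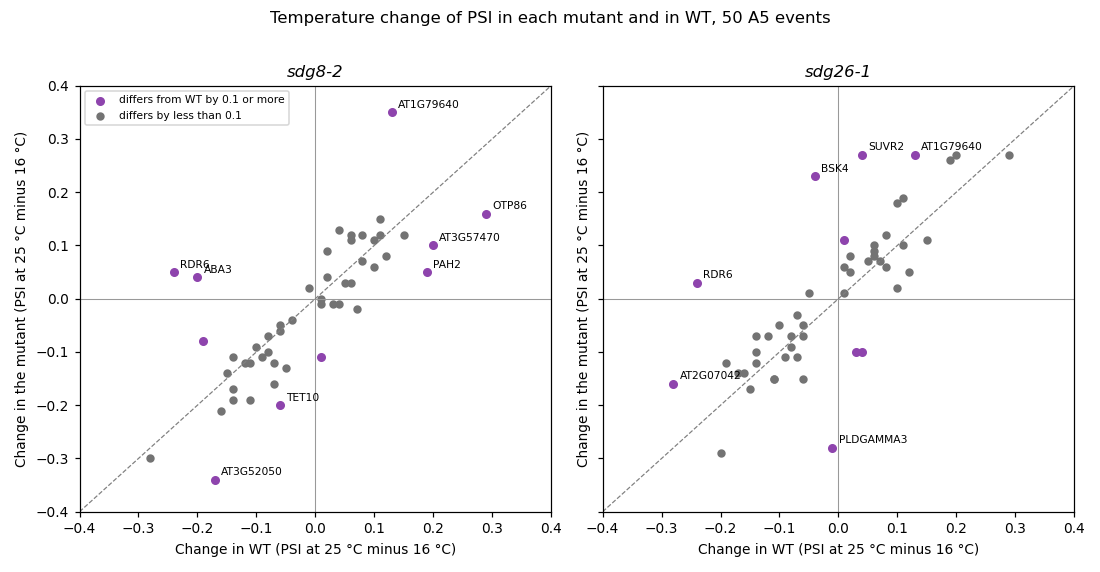
Change of PSI (25 °C minus 16 °C) in *sdg8-2* (left) and *sdg26-1* (right) on the y axis against the change in WT on the x axis, with 1 point per event and a dashed line of equal change. Purple points, 10 for *sdg8-2* and 9 for *sdg26-1*, lie 0.1 or more from WT, and *RDR6* (0.05 in *sdg8-2* and 0.03 in *sdg26-1*, against −0.24 in WT) is among them in both panels. Listing required a DiS call in at least 1 genotype, so such differences are partly built into the choice of events.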

How the data were processed

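The authors mapped the reads of the 18 stranded paired-end libraries to TAIR10 with TopHat2, extended the transcripts with Cufflinks and estimated PSI with MISO on the merged samples of each condition. The sources used here give no tool versions; TopHat2, Cufflinks and TAIR10 are also named in the submitters' processing notes. The deposited values are fractions with 2 decimals, 1 per event and condition. The deposited table also holds 6 columns of the authors' own differences and calls, which were not used. An event was listed where the authors called it DiS in at least 1 genotype, by a Bayes factor and rules on isoform reads and replicates.

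Differences of PSI were taken between the pooled values, and members with an absolute difference of at least 0.1 were counted beside the same count over all 399 events. No p-value was computed, since events are not replicates. Named genes were the 4 largest changes of each sign in each genotype and of each difference of the change from WT, the 3 largest differences of each sign from WT at each temperature, members past 0.1 in all genotypes, and the role lists, 45 of 50 in all. The members and lists were chosen with earlier results of these data known. Donor pairs were read from the RefSeq annotation and sequence of TAIR10.1, whose coding spans were checked against the deposited annotation. Counting and pairing were tested on simulated data. Alternatives were other limits, 1 event per assembled locus, leaving out events near 0 or 1 in all conditions, and log odds. Python 3.11.15, numpy 2.4.6, pandas 2.3.3 and matplotlib 3.10.9 were used.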

Additional observations from a re-analysis of the deposited data

How the results depend on the processing

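Among the alternatives, only another limit moved a total count of members by over 1.5 times. With 0.05 in place of 0.1, 45 members differed between the temperatures in *sdg26-1* and 40 in WT, 16 (*sdg8-2*) and 15 (*sdg26-1*) differed from WT at 25 °C, 20 (*sdg8-2*) and 16 (*sdg26-1*) at 16 °C, and the change with temperature differed from WT in 22 (*sdg8-2*) and 24 (*sdg26-1*). With 0.15, the counts were 11 in *sdg8-2*, 15 in *sdg26-1* and 11 in WT between the temperatures, 0 (*sdg8-2*) and 3 (*sdg26-1*) from WT at 25 °C, 2 for *sdg26-1* at 16 °C, and 4 in each mutant for the change. With 0.2, they were 5 in *sdg8-2*, 8 in *sdg26-1* and 5 in WT between the temperatures, 0 (*sdg8-2*) and 1 (*sdg26-1*) from WT at 25 °C, 1 and 0 at 16 °C, and 3 and 4 for the change. These 25 of 45 totals moved by over 1.5 times, as did 46 of the counts in 1 direction. Counting 1 event per assembled locus (49 members) or leaving out 2 events near 0 or 1 in all conditions (48 left) moved no total by that much. With these, no median difference moved by over 0.01, and with log odds of PSI none took the opposite sign. A median of 0 has no opposite sign. This held for the temperature change in WT and for *sdg8-2* against WT at 25 °C, so the check says nothing there.

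No paired analysis was possible because the table holds 1 merged value per condition, and for the same reason no fit leaves a sample out. The depth behind each PSI is unknown, so no interval is given for any value.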
